A study of Rattus norvegicus with 6 samples.

Results

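The expression of 6 genes of vessel growth and of leukocyte adhesion to vessels was followed in the injured rat spinal cord: Vegfa (ENSRNOG00000019598), Kdr (ENSRNOG00000046829), Flt1 (ENSRNOG00000000940), Tek (ENSRNOG00000008587), Vcam1 (ENSRNOG00000014333) and Icam1 (ENSRNOG00000020679). They were taken by a fixed list of Ensembl gene IDs and were not picked by a cut on their values, but the list was chosen with earlier results of these data known. All 6 IDs were among the 22526 genes listed, and all 6 passed the filter on low values that left 19515 genes to test. The symbols came with that list; neither the deposited table nor the RefSeq gene table used here pairs them with the IDs.

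The RNA came from the spinal cord of 6 adult female Sprague-Dawley rats weighing 220 to 250 g, 2 weeks after spinal cord injury, with 1 library per rat. In the DON group, 3 rats carried a decellularized optic nerve scaffold, which is optic nerve from which the cells have been removed. In the A-DON group, 3 rats carried the same scaffold with Apt19S, an aptamer, that is, a short nucleic acid strand whose fold binds a target. All 6 rats were thus injured and implanted, no uninjured or unimplanted cord is compared here, and the age of the rats, the kind of injury and the extent of the dissected piece are not stated in the labels.

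VEGF-A, the product of Vegfa, is a secreted growth factor that drives endothelial cells to divide and to sprout. It signals mainly through VEGFR-2 (Kdr), while VEGFR-1 (Flt1) binds it tightly and, also in a soluble form, holds it away from VEGFR-2. TIE2 (Tek) is the receptor for the angiopoietins, which steady or loosen the vessel wall. VCAM-1 and ICAM-1 are cell surface proteins that hold passing leukocytes through the integrins VLA-4 and LFA-1, and inflamed endothelium makes more of both. Kdr and Tek are best known from endothelium and Flt1 from endothelium and monocytes, whereas astrocytes also make VEGF-A, and glia and leukocytes also make the adhesion proteins.

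Summed over the genes listed, libraries held 24961512 to 31189687 reads, as recovered from the deposited values. Each value rests on 142 reads (Icam1 in A-DON replicate 1) to 3524 reads (Vegfa in A-DON replicate 3). Levels are given as normalized counts, which are reads divided by a size factor of the library. These are not corrected for gene length and are compared between libraries only, not between genes. Over all tested genes A-DON replicate 2 lay between the groups: on the first principal component (70.5% of the variance) it scored 15.6, the other A-DON libraries 144 and 128 and the DON libraries -113 to -71.0. Results are given with and without it where it bears on them. Markers of endothelium and of other cell types could not be matched to the IDs, so the labelled tissue was not checked. A different share of endothelial cells, leukocytes or glia and a different amount of RNA per cell cannot be told apart here. The tests measure the spread among 3 rats a group.

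Upstream sequence is shown for the 2 adhesion genes, which are known to share control by NF-kB and whose fold changes were far apart, and for the 2 VEGF receptors, of which Flt1 passed the test and Kdr did not. Each is the 250 bases before a start site in RefSeq (build GRCr8), 5′ to 3′ on the gene's strand. Capitals mark matches, on either strand, to GGNNNTTCC (NF-kB-like), TGACGTCA (cyclic AMP response element), TATAAA (the core of a TATA box), GGGCGG (GC box) and ACGTG (a form of the hypoxia response core).
Icam1, chr8:27829595-27829844, plus strand: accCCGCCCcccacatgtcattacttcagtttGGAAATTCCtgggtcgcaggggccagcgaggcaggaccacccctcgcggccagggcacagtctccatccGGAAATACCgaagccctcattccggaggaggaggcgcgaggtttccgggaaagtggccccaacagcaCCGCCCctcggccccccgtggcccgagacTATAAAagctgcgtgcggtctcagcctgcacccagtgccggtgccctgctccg
Vcam1, chr2:206742784-206743033, minus strand: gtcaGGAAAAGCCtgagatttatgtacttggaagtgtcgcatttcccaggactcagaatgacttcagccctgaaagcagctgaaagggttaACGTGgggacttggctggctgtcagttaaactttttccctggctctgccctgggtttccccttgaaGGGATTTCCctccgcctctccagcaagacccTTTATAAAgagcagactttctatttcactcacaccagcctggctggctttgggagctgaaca
Flt1, chr12:12333180-12333429, plus strand: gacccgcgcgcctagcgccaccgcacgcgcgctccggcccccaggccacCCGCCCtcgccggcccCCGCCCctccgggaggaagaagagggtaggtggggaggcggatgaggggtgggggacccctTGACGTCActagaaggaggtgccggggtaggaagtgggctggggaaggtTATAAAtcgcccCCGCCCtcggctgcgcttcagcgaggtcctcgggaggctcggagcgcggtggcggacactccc
Kdr, chr14:32571813-32572062, plus strand: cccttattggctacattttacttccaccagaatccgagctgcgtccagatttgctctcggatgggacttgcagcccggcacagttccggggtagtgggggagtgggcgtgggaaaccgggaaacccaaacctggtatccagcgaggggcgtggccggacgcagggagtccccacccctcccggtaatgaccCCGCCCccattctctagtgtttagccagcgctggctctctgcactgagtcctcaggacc

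The Icam1 stretch held 2 NF-kB-like matches, 218 to 210 and 149 to 141 bases before the start, the first of which matched on both strands. The Vcam1 stretch also held 2, at 246 to 238 and 93 to 85 bases before the start. Such a match occurs in 15.4% of the 33469 upstream stretches of this length in the table. TATAAA, found in 12.9% of all stretches, was present in Icam1, Vcam1 and Flt1; in Vcam1 it overlapped a match on the other strand. The Flt1 stretch was the one of the 4 with TGACGTCA, which 1.59% of all stretches hold, and its G and C content was 73.2% against 61.6% in Kdr. GC boxes (30.5% of all stretches) were found in Icam1, Flt1 and Kdr, and ACGTG (16.6%) in Vcam1. Other forms of the NF-kB site and of the hypoxia response core were not searched for. The 2 NF-kB-like matches in Icam1 and in Vcam1 are thus no full count of such sites, and their numbers are not compared. Nor are Icam1, Flt1 and Kdr shown to lack a hypoxia response core. These are matches of letters and no measure of binding. The 4 genes were chosen in part by their test results, and whether the matches bear on the fold changes was not tested. Promoters of 5 of the 6 genes were in the table, Tek not among them, and that of Vegfa is not shown.

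Of the 6 genes, 2 passed the test between A-DON and DON, both lower in A-DON: the VEGF receptor Flt1 and the angiopoietin receptor Tek. Flt1 was 2.25-fold and Tek 2.75-fold lower on the ratio of group means. No gene of the 6 passed as higher. Icam1 had the largest difference in means, 3.46-fold lower in A-DON, but A-DON replicate 2 was close to the DON rats and the test was missed. Vegfa was 1.36-fold higher in A-DON and also missed it, and Kdr and Vcam1 overlapped between the groups. Over all genes, 35.5% passed the same test (limma on log2 values, Benjamini-Hochberg adjusted p under 0.05), 18.9% as higher and 16.6% as lower in A-DON, a count that fell from 6930 genes to 35 or 12 without A-DON replicate 1 or 3 and was 9286 without A-DON replicate 2. The 2 of 6 are thus close to the share among all genes. The median log2 fold change was -0.58 over the 6 genes and -0.02 over all genes tested. Of the 6 values 3 were positive, and the median falls in the gap between Vcam1 (0.02) and Flt1 (-1.18).

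**Figure D1:**
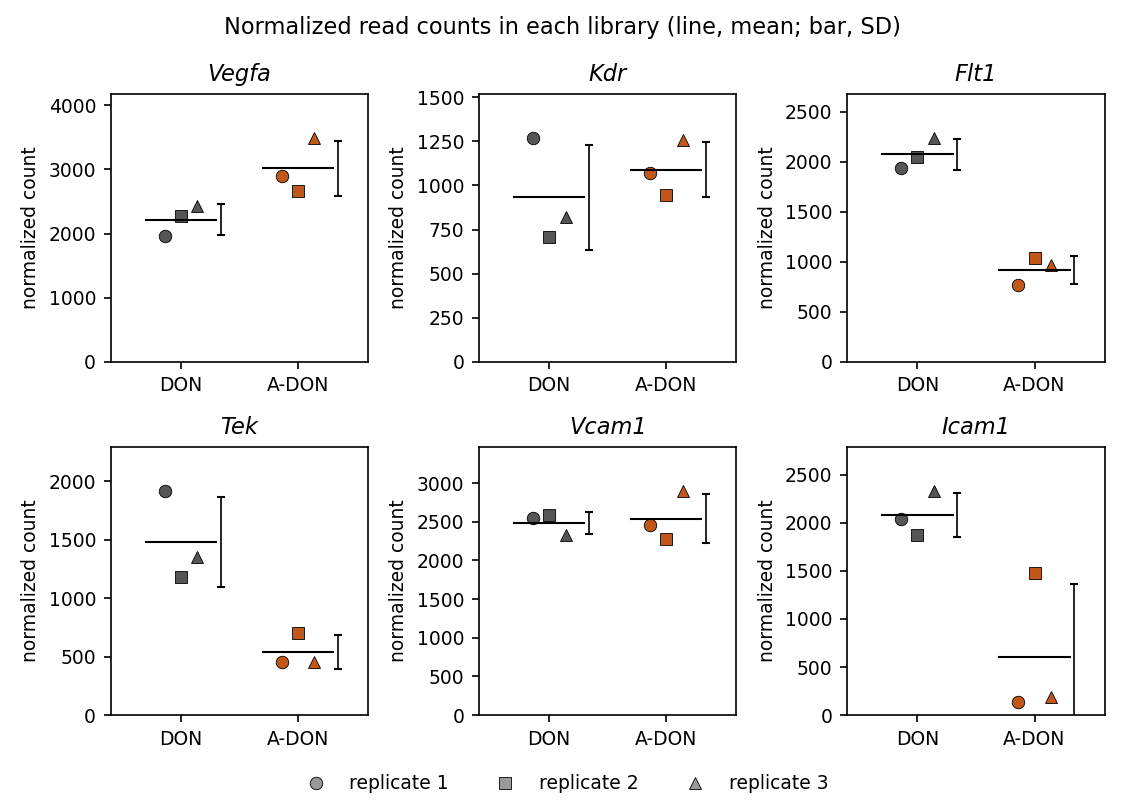
Normalized counts of the 6 genes in each library, with the group on the horizontal axis, 1 symbol per replicate, a line at the mean and a bar of 1 SD (n = 3; the bar of Icam1 in A-DON runs below 0 and is clipped at the axis). In Flt1 and Tek all A-DON rats lay below all DON rats, and in Icam1 they did so with 137 and 189 counts in replicates 1 and 3 and 1476 in replicate 2.

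Of the ligand, Vegfa, the DON replicates 1 to 3 had 1958, 2265 and 2431 normalized counts, and the A-DON replicates 1 to 3 had 2898, 2659 and 3484. Every A-DON rat lay above every DON rat, but the nearest pair, A-DON replicate 2 and DON replicate 3, differed by 9.40%. The means were 2218 ± 240.0 in DON and 3014 ± 425 in A-DON (SD, n = 3 each). On the log2 scale the difference was 0.44 ± 0.15 (standard error), the 95% interval ran from 0.08 to 0.80, and limma's adjusted p was 0.061. Without A-DON replicate 2 it was 0.52 with an adjusted p of 0.034, and with libraries scaled to equal totals 0.53 with an adjusted p of 0.036. Without A-DON replicate 3, DON replicate 1 or A-DON replicate 1 it was 0.33, 0.35 or 0.46, with adjusted p of 0.19, 0.14 and 0.15. Over all 14 alternatives the adjusted p ran from 0.034 to 0.19. Vegfa was the one gene of the 6 whose A-DON values lay entirely above DON, as they did for 28.0% of all genes tested.

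Kdr, the main signalling receptor for VEGF-A, had 1268, 707 and 821 normalized counts in DON replicates 1 to 3 and 1069, 945 and 1256 in A-DON replicates 1 to 3. The groups overlapped, since DON replicate 1 was higher than all A-DON rats and the other DON rats were lower than all of them. The means were 932 ± 296 and 1089.8 ± 156 (SD, n = 3 each). The means of the log2 values differed by 0.26 ± 0.24 (standard error, limma adjusted p = 0.43). The 95% interval of -0.34 to 0.86 leaves room for changes in either direction. The estimate depended on the DON rats: it was 0.51 without DON replicate 1 and 0.08 without DON replicate 2, neither past the threshold.

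Flt1, the decoy-like VEGF receptor, had 1935, 2053 and 2237 normalized counts in DON replicates 1 to 3 and 766, 1035 and 966 in A-DON replicates 1 to 3. The groups were well apart: the lowest DON rat was 87.0% above the highest A-DON rat. The log2 SD was 0.11 in DON and 0.23 in A-DON, and 82.8% and 59.8% of all genes tested had a larger one. The means were 2075 ± 152 and 922 ± 139 (SD, n = 3 each). Flt1 fell by 1.18 on the log2 scale (standard error 0.15, 95% interval -1.54 to -0.82, limma adjusted p = 0.0094). A-DON replicate 2, at 1035, was here near the other A-DON rats. It stood at 0.86 of the way from the DON mean to the mean of A-DON replicates 1 and 3 on the linear scale, and at 0.79 on the log2 scale. Without A-DON replicate 1 or 3 the fold change was -1.05 or -1.22, with adjusted p of 0.0503 and 0.060, so the call then was lost while the size of the difference was kept.

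Tek, which encodes the angiopoietin receptor TIE2, had 1911, 1177 and 1352 normalized counts in DON replicates 1 to 3 and 456, 704 and 456 in A-DON replicates 1 to 3. DON replicate 1 was the highest of its group, as it was for Kdr, and A-DON replicate 2 the highest of its group, yet the lowest DON rat was still 67.0% above the highest A-DON rat. The means were 1479.8 ± 384 and 539 ± 143 (SD, n = 3 each). Tek fell by 1.46 on the log2 scale (standard error 0.26, 95% interval -2.09 to -0.83, limma adjusted p = 0.015). A-DON replicate 2 stood at 0.76 of the way from the DON mean to the mean of the other A-DON rats on the linear scale, and at 0.62 on the log2 scale. Without A-DON replicate 2 the fold change was -1.67 with a limma adjusted p of 0.0040. The call was lost without A-DON replicate 1, A-DON replicate 3 or DON replicate 3 (adjusted p of 0.067, 0.069 and 0.053), where the fold changes were -1.35, -1.35 and -1.51.

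Of the adhesion genes, Vcam1 had 2549.8, 2589 and 2326 normalized counts in DON replicates 1 to 3 and 2453, 2277 and 2892 in A-DON replicates 1 to 3. The lowest and the highest value were both in A-DON, so the groups overlapped fully. The means were 2488 ± 142 and 2541 ± 317 (SD, n = 3 each). The means of the log2 values differed by 0.02 ± 0.13 (standard error, limma adjusted p = 0.89). The 95% interval, -0.28 to 0.33, is the narrowest of the 6, and 97.7% of all genes tested had a larger absolute fold change. The sign of this small value turned with quantile normalization (-0.01) and without DON replicate 3 or A-DON replicate 3 (-0.02 and -0.07).

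Icam1, which binds the leukocyte integrin LFA-1, had 2042, 1868 and 2324 normalized counts in DON replicates 1 to 3. The A-DON replicates 1 to 3 had 137, 1476 and 189. Replicates 1 and 3 were thus 12.8-fold lower on average than DON, whereas replicate 2 was 9.07 times as high as the mean of those rats and still below the lowest DON rat, which exceeded it by 26.6%. On the linear scale replicate 2 stood at 0.31 of the way from DON to the other A-DON rats, against 0.86 for Flt1 and 0.76 for Tek. On the log2 scale, which the tests used, its position was 0.13 for Icam1, 0.79 for Flt1 and 0.62 for Tek.

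The Icam1 means were 2078 ± 230.1 in DON and 600.5 ± 759 in A-DON (SD, n = 3 each). The means of the log2 values differed by -2.61 ± 0.88 (standard error), with a 95% interval from -4.76 to -0.47, and limma's adjusted p was 0.061. This is a larger fall than the 3.46-fold of the linear means, in which A-DON replicate 2 weighs most. The log2 SD of Icam1 within A-DON, 1.86, was exceeded by 3.65% of all genes, while that within DON was 0.16. Without A-DON replicate 2 the difference became -3.68 ± 0.19 (standard error; adjusted p = 0.00062); limma's voom on the recovered reads, with all rats, gave -2.66 and an adjusted p of 0.037. Without A-DON replicate 1 or 3, in contrast, the difference was -1.97 or -2.20, with adjusted p of 0.18 in both. Leaving out A-DON replicate 2 raised the share of all genes past the threshold from 35.5% to 47.6%. Of the 6 genes 4 then passed, Vegfa as higher and Flt1, Tek and Icam1 as lower. Leaving out A-DON replicate 1 or 3 instead left 35 or 12 genes of the 19515 past the threshold and 0 of the 6 (limma; 2 of the 6 at an unadjusted p under 0.05 in each). What set A-DON replicate 2 apart was not tested.

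**Figure D2:**
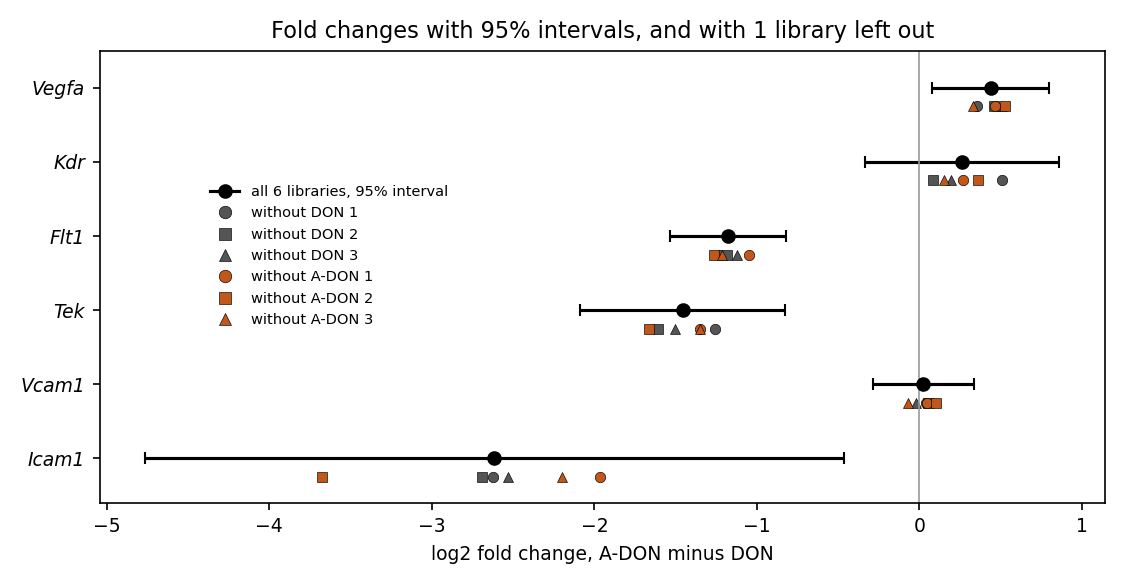
Log2 fold change (A-DON minus DON) of each gene on the horizontal axis, with its 95% limma interval over all 6 libraries in black and, beneath it, the values with 1 library left out, coloured by the group of that library. The interval of Icam1 spans -4.76 to -0.47 and its value moves to -3.68 without A-DON replicate 2, while Flt1 stays between -1.27 and -1.05.

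In 3 of the 6 genes, Flt1, Tek and Icam1, every A-DON rat was below every DON rat, which held for 27.9% of all genes tested. Set among all genes, the fold change of Icam1 was in the lower tail, with 3.51% of genes lower still. Those of Flt1 and Tek were more ordinary, with 16.7% and 13.4% of genes lower. At the other end, 30.3% of genes had a higher fold change than Vegfa and 36.9% a higher one than Kdr. Differences of the size seen in the 2 receptors that passed were therefore common in this comparison.

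**Figure D3:**
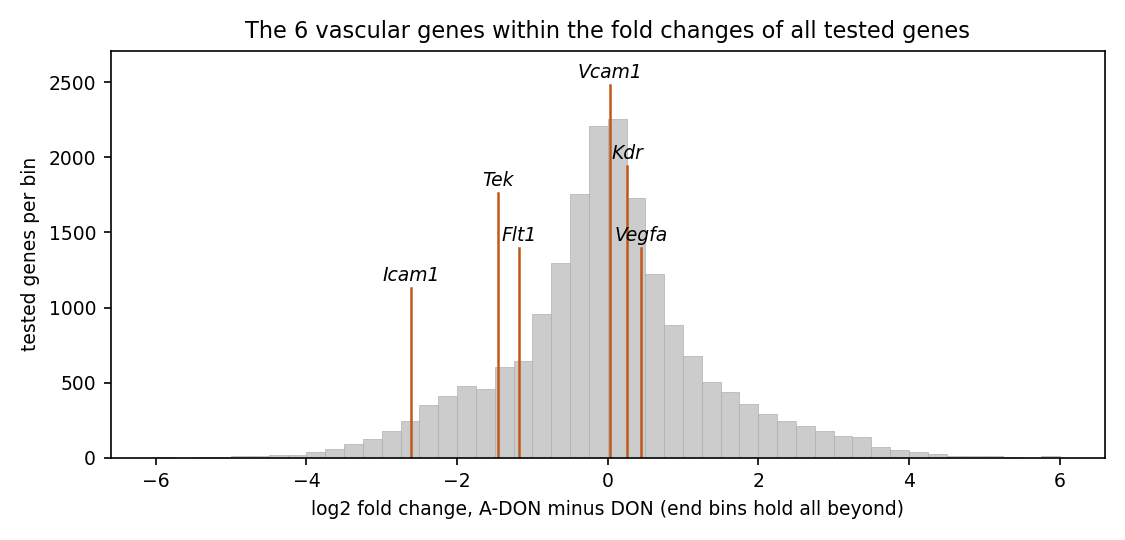
Number of tested genes per bin of log2 fold change (A-DON minus DON, bins of 0.25 in grey), with a line at each of the 6 genes. Icam1 sits at -2.61 in the lower tail, Tek and Flt1 at -1.46 and -1.18 on the lower shoulder, and Vcam1, Kdr and Vegfa near the centre.

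Ratios between 2 of the genes within a library do not depend on how libraries are scaled, and 6 of them were compared. Their absolute size reflects gene length too, so only the difference between groups is read. Flt1 relative to Kdr was lower in all A-DON rats, with log2 ratios of 0.61, 1.54 and 1.44 in DON replicates 1 to 3 and of -0.48, 0.13 and -0.38 in A-DON replicates 1 to 3. The difference between means was -1.44. The 2 receptors of VEGF-A thus stood in a different proportion in every A-DON rat than in every DON rat. Flt1 alone also separated the groups, as did Tek and Icam1, and 27.9% of all genes tested did so in that direction. How often ratios of other gene pairs separate the groups was not counted.

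Tek relative to Kdr was steady in DON, at log2 ratios of 0.59, 0.73 and 0.72, although each gene alone varied 1.62-fold (Tek) and 1.79-fold (Kdr) among those rats. In A-DON it was -1.23, -0.42 and -1.46, a difference between means of -1.72. Vcam1 relative to Icam1 was 0.32, 0.47 and 0.00 in DON and 4.16, 0.63 and 3.93 in A-DON, a difference of 2.64. In A-DON replicate 2 this last ratio was just above the highest DON value.

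Icam1 relative to Kdr had a difference of -2.88, again with no overlap between the groups, but only narrowly. The log2 ratio in A-DON replicate 2, 0.64, was just below the lowest DON value, 0.69 in DON replicate 1. In A-DON replicates 1 and 3 it was -2.96 and -2.73. In an exact permutation test (two-sided) each of these 4 ratios reached p = 0.1, the least possible with 3 rats a group, and 0.15 after Benjamini-Hochberg adjustment over the 6 ratios. Vegfa relative to Kdr (difference 0.18, exact p = 1, adjusted p = 1) and Vcam1 relative to Kdr (difference -0.24, exact p = 0.4, adjusted p = 0.48) overlapped between the groups. The log2 ratio of Vegfa to Kdr was 1.44, 1.49 and 1.47 in A-DON replicates 1 to 3 and 0.63, 1.68 and 1.56 in DON replicates 1 to 3. That of Vcam1 to Kdr ran from 1.198 to 1.268 in A-DON and from 1.008 to 1.871 in DON. Both ratios thus varied less among the A-DON rats than among the DON rats, a difference in spread that was not tested. They share Kdr as denominator, whose own log2 SD was 0.44 in DON and 0.21 in A-DON, so they are not separate observations. The sign of the Vegfa to Kdr difference rested on DON replicate 1, without which it was -0.15.

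**Figure D4:**
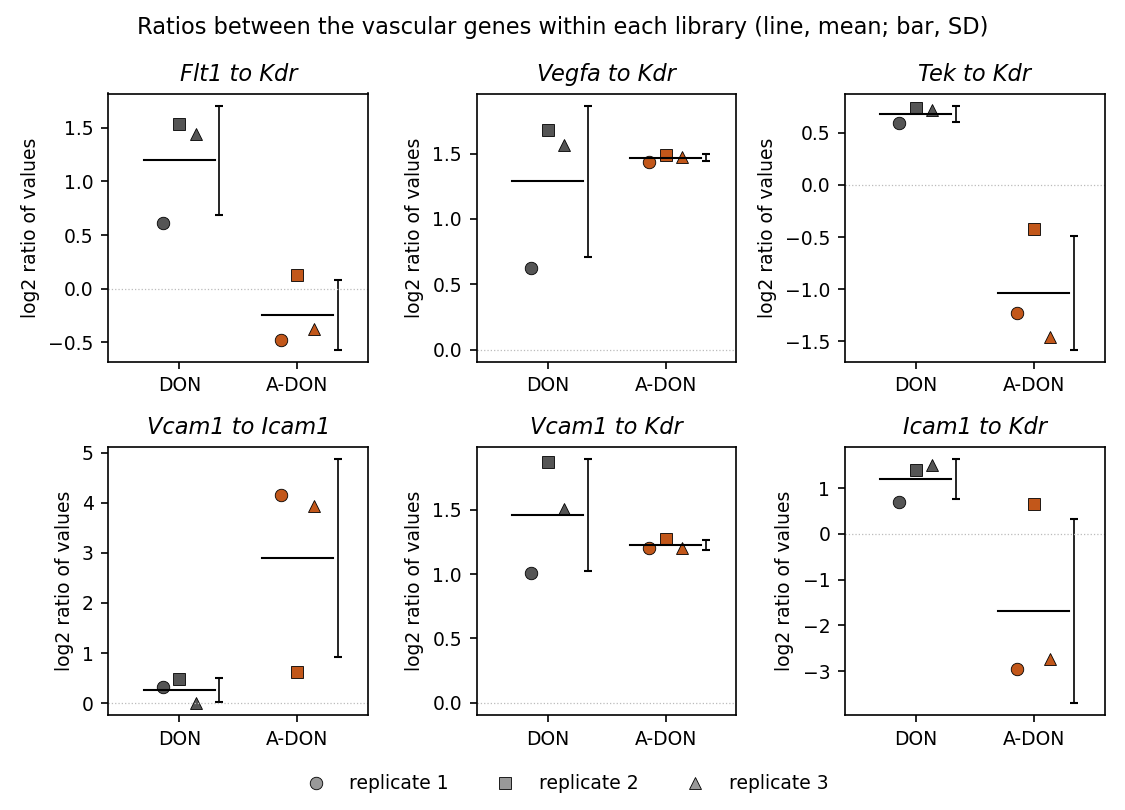
Log2 ratio between 2 genes in each library on the vertical axis, with the group on the horizontal axis, 1 symbol per replicate, a line at the mean and a bar of 1 SD (n = 3). Flt1, Tek and Icam1 relative to Kdr lie lower in all A-DON rats, Vcam1 to Icam1 higher, and the Vegfa to Kdr ratio spans 1.44 to 1.49 in A-DON and 0.63 to 1.68 in DON.

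The patterns over the 6 libraries were compared by the root mean square distance between log2 values, each centred on its mean. Of the 15 pairs among the 6 genes, Vegfa and Vcam1 were nearest (0.24), followed by Kdr and Vcam1 (0.28) and by Flt1 and Tek (0.33). Icam1 was the farthest from the rest, at 1.06 from Tek and 1.91 from Vegfa. Its pattern was also uncommon among the 14705 other tested genes that averaged 50 normalized counts or more: 45 of them lay within 0.25 of Icam1, against 4511 for Vcam1, 2920 for Vegfa, 1154 for Kdr, 571 for Flt1 and 323 for Tek. A gene with small differences has many near neighbours by this measure.

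By the naming rule, 4 genes most alike in pattern are given, by ID because no symbol is paired with them here. ENSRNOG00000005882 was at 0.02 from Kdr, with 689.7 ± 209.6 normalized counts in DON and 827 ± 129 in A-DON (SD, n = 3 each). ENSRNOG00000055317 was at 0.04 from Vegfa, with 223 ± 21.8 and 302 ± 36.0. With a negative fold change, ENSRNOG00000015294 was at 0.03 from Vcam1, with 559.9 ± 23.7 and 558 ± 72.9, and ENSRNOG00000041989 at 0.07 from Flt1, with 203 ± 20.3 and 92.7 ± 8.70. The former was lower by sign only (log2 fold change -0.01, limma adjusted p = 0.95). Of these 4, only ENSRNOG00000041989 passed the test (log2 fold change -1.12, limma adjusted p = 0.014).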

How the data were processed

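Per the labels' protocols, the spinal cord RNA of each rat went into 1 stranded mRNA-seq library read on an Illumina sequencer. The submitters' processing notes list the build rn6 and, without their roles, STAR 2.5.3a, FastQC 0.11.2 and StringTie 1.3.1c; the sources used here do not give the counting program, strand setting or annotation. The authors deposited 1 table of log2 values (0 to 19.8) for 22526 genes. The unit was read from the values. With the log2 undone and 1 subtracted, 100% were whole multiples of 1 step per library within 0.05 reads. The table was thus taken to hold log2(count / size factor + 1). These whole counts are called reads here, although the counting program is not given.

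A-DON was tested against DON with limma 3.58.1 (R 4.3.3, statmod 1.5.0), with group as the one term, an intensity trend and robust moderation, on genes with at least 1 normalized count in at least 3 libraries; p-values were adjusted by Benjamini-Hochberg over the 19515 genes, threshold 0.05. The 1 added before the log2 makes fold changes of low genes too small. The fit was tested on simulated data. Ratios were compared by exact permutation in scipy 1.17.1. Alternatives were no filter, a mean of at least 5, a pseudocount of 0.1, quantile normalization, equal library totals, limma without trend and robust moderation, voom, a block on the replicate number, and each library left out in turn.

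None of the table's IDs was in the RefSeq gene table (47357 genes, GRCr8), so 12 lists of pathway and cell type genes (126 symbols) could not be matched and gave no result. Upstream sequences were matched by symbol. The naming rule took all 6 genes and, by ID, the 2 genes with a positive and the 2 with a negative fold change nearest in pattern to any of them among the 3 nearest of each. The 6 genes, the lists and the tests were chosen with earlier results of these data known. No molecular identifiers are mentioned in the labels, so read numbers speak for counting error only.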

Additional observations from a re-analysis of the deposited data

How the results depend on the processing

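Of the 6 fold changes, those of Vegfa, Kdr, Flt1, Tek and Icam1 kept their direction under all 14 alternatives (the block cannot change it), and that of Vcam1 turned under quantile normalization (-0.013) and in 2 of the fits without a library. Apart from the block and left-out libraries, 2 alternatives moved a call: equal library totals brought Vegfa past the threshold (0.53) and voom brought Icam1 past it (-2.66), so that 3 of the 6 genes passed in each; the causes were not tested. Equal totals moved the median of all genes by 0.09.

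Rats sharing a replicate number did not deviate together (r = -0.17, -0.24 and -0.08), and no library correlated best with its own number, so rats were not paired by number. With the number as a block, limma called 0 genes in the table (7601 at an unadjusted p under 0.05) and 0 of the 6 (4 unadjusted); Flt1 (-1.18) and Tek (-1.46) then had adjusted p of 0.066 and 0.069. Fold changes are the same with and without this block by construction, and the fit has fewer residual degrees of freedom.

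Leaving out 1 library gave 12 to 9286 genes called in the table and 0 to 4 of the 6. The lowest counts came without A-DON replicates 1 (35 genes) and 3 (12 genes), and the highest without A-DON replicate 2. The fold changes ran from 0.33 to 0.52 for Vegfa, 0.08 to 0.51 for Kdr, -1.27 to -1.05 for Flt1, -1.67 to -1.26 for Tek, -0.073 to 0.10 for Vcam1 and -3.68 to -1.97 for Icam1. The Vegfa to Kdr difference ran from -0.15 to 0.37, and the other 5 ratios kept their sign. With 2 rats in a group the exact test cannot go below 0.2. Depth was not varied.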
